A study of Homo sapiens with 3 samples.

Results

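The proteasome is the protease complex that degrades ubiquitin-tagged proteins in the cytosol and nucleus. Its barrel-shaped core particle is built of rings of alpha (PSMA) and beta (PSMB) subunits, and its regulatory particle unfolds substrates with a ring of ATPases (PSMC) and recognises and deubiquitinates them with non-ATPase subunits (PSMD). Dedicated chaperones (PSMG and some PSMD products) assemble both particles, and activators and an inhibitor (PSME and PSMF1) bind the core. FOXM1 is a forkhead transcription factor of the cell cycle.

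Proteasome genes were taken as the RefSeq protein-coding genes whose symbol begins with PSMA, PSMB, PSMC, PSMD, PSME, PSMF or PSMG and a number. The rule found 50 of 19974 protein-coding genes on chromosomes 1 to 22 and X. It includes 2 genes whose products are neither subunits nor assembly chaperones of the complex: PSMC3IP, a cofactor of meiotic recombination, and PSME3IP1, which encodes a protein that binds PSME3. They are kept in all counts and named where they matter, beside 48 genes of the complex itself.

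All chromatin came from Huh7, an established line of human hepatocellular carcinoma cells, without treatment. Replicates 2 and 3 are ChIP-seq libraries pulled down with antibody G-5 against FOXM1, and an input library, whose peaks were not analysed here, completes the series. Separate cultures are not stated for the ChIP libraries, so agreement between them may be technical. The samples include neither a control antibody nor FOXM1-depleted cells, so specificity for FOXM1 was not tested, and the lists hold no expression values with which to check the cell type. Replicate 2 had 8271 peaks and replicate 3 had 11502, with a median of 26.0 and 24.5 fragments over the summit. A gene carried a peak in a library where a summit lay inside it or within 1 kb. Fold enrichment is the authors' linear ratio of ChIP signal to local background at the summit, and −log10 q is their significance of the peak.

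Of the 50 proteasome genes, 12 carried a peak in both libraries (24.0%), against 25.5% of all protein-coding genes by the same rule. In replicate 2 it was 14 genes (28.0%) against 30.3% of all genes, and in replicate 3 it was 15 (30%) against 38.1%. The proteasome genes as a whole thus stood at or below the share of the genome. The genes with a peak in both were PSMA1 and PSMA7 of the alpha ring, PSMD2, PSMD3, PSMD11 and PSMD14 of the regulatory particle, the chaperone genes PSMD5, PSMG2 and PSMG4, the activator genes PSME1 and PSME4, and the inhibitor gene PSMF1. A peak in 1 library alone was present at PSMA4 and PSMB10 (replicate 2) and at PSMD13, PSMG3 and PSMC3IP (replicate 3). The other 33 carried none, which says only that no summit there passed the authors' threshold.

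By parts of the complex, none of the 7 constitutive beta ring genes and none of the 6 ATPase genes carried a peak in either library. In all, 4 of 11 non-ATPase genes, 3 of 7 chaperone genes, 3 of 5 activator and regulator genes and 2 of 8 alpha ring genes carried one in both. Of all protein-coding genes 25.5% carried one in both and 42.9% in either. The groups are small, and the differences between them were not tested.

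**Figure D1:**
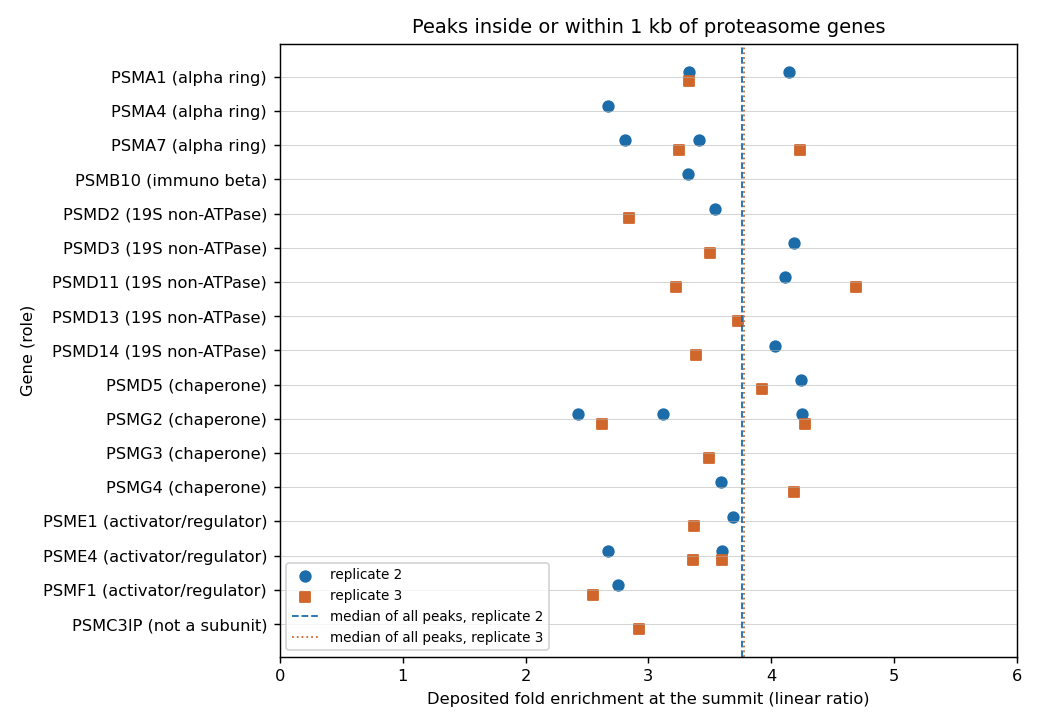
Deposited fold enrichment (linear ratio, horizontal axis) of every peak inside or within 1 kb of the 17 proteasome genes with any peak, one row per gene with its role. Circles are peaks of replicate 2, squares those of replicate 3, and the vertical lines mark the median of all peaks of each library (3.76 and 3.78). No member peak reached a fold of 5.

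Promoter sequences from RefSeq (GRCh38.p14) run from 250 bases before to 50 bases from the annotated start, and 44 of the 50 proteasome genes had an entry. PSMA7, PSMB1, PSMB6, PSMB7, PSMD4 and PSMG3 had none. The promoters of PSMD11 (chr17:32444260-32444559, plus strand) and PSMD2 (chr3:184298991-184299290, plus strand) are shown because the summits of both libraries fell within them. The second promoter of PSMG2 (chr18:12702792-12703091, plus strand) lay under the strongest proteasome peak by −log10 q in replicate 3, and partly under that of replicate 2. The summits of these peaks, 313 bp (replicate 2) and 334 bp (replicate 3) upstream of the start, lay outside the printed window. PSMD5 (chr9:120842873-120843172, minus strand) and PSMB2 (chr1:35641477-35641776, minus strand) are the proteasome genes whose promoters hold the forkhead letters TGTTTAC. The last 3 were chosen after their values were seen. Capitals mark matches on either strand to the 9 motifs searched, described with the promoter results.
PSMD11: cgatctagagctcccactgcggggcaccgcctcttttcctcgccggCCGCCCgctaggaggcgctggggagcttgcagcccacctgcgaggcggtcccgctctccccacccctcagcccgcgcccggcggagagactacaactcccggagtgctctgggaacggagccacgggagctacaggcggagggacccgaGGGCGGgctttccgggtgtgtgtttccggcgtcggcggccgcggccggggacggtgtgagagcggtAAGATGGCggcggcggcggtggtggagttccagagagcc
PSMD2: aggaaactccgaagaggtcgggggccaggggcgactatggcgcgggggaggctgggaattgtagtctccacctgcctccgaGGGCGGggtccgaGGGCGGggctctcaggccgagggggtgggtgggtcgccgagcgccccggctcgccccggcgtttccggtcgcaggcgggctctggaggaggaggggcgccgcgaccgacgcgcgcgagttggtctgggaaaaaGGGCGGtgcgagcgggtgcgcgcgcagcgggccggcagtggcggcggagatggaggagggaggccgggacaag
PSMG2: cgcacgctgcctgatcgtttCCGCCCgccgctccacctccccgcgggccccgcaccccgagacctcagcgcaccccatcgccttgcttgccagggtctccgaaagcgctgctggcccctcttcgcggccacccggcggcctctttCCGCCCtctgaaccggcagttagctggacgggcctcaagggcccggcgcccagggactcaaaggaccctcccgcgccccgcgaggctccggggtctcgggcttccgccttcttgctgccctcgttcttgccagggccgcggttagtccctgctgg
PSMD5: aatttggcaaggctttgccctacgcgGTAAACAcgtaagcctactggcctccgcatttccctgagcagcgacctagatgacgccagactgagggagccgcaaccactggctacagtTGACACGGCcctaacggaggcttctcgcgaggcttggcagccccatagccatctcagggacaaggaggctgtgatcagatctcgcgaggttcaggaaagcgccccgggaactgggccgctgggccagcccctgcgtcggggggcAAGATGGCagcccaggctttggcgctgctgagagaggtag
PSMB2: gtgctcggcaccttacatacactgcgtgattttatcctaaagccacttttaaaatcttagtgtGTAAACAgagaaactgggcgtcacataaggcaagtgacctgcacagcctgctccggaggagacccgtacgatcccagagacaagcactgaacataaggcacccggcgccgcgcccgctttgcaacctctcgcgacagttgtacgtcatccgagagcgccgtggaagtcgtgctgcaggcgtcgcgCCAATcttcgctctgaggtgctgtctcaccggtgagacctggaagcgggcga

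Among alpha ring genes, whose products gate the entry of the core, PSMA7 (chromosome 20, 62136733 to 62143394) had the clearest peaks. In replicate 2 there were 2, with fold 2.81 (−log10 q 2.90, 62142702 to 62143157) and 3.41 (−log10 q 4.13, 62143415 to 62143560). In replicate 3 a peak of 1070 bp with fold 4.23 and −log10 q of 6.63 (62142773 to 62143842) overlapped both, and another of fold 3.25 lay 856 bp beyond the gene. All 4 were at the upper-coordinate end of the gene and within 1 kb of an end of SS18L1, which encodes a chromatin-remodelling subunit, so the peaks cannot be assigned to either gene. PSMA1 (chromosome 11, 14504876 to 14643662) carried peaks in both libraries, but at different places. Its replicate 2 peaks (fold 3.33 and 4.14) lay 6 bp and 922 bp outside the upper-coordinate end of the gene, which is its outermost end on the 5′ side, beside PDE3B, a phosphodiesterase gene. The replicate 3 peak (fold 3.33, −log10 q 2.08) lay 103 bp upstream of the start in the promoter table, which is internal to the gene, with 123179 bp between the nearest summits of the libraries. PSMA4 had a peak in replicate 2 alone, 166 bp upstream of its nearest annotated start, with fold 2.67 on 24 fragments; its −log10 q of 1.63 was close to the lowest value of that list, 1.32. PSMA2, PSMA3, PSMA5, PSMA6 and PSMA8, an alpha subunit gene used in testis, carried none.

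The beta ring holds the proteolytic sites. PSMB5, PSMB6 and PSMB7, which encode the catalytic subunits of the constitutive core, carried no peak, nor did PSMB1, PSMB2, PSMB3 and PSMB4. Their nearest summits lay 4580 bp (PSMB3), 5969 bp (PSMB6), 22619 bp (PSMB5), 31183 bp (PSMB1), 42283 bp (PSMB2), 62349 bp (PSMB7) and 199045 bp (PSMB4) outside the gene in replicate 2, and 5077 bp (PSMB3) to 210435 bp (PSMB4) outside it in replicate 3. Of the catalytic subunits that replace them in immune cells and thymus, PSMB8, PSMB9 and PSMB11 carried none. PSMB10 had a peak in replicate 2 alone (chromosome 16, 67936257 to 67936459), 491 bp downstream of its start, with fold 3.32 and −log10 q of 2.28 on 21 fragments.

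In the ATPase ring, PSMC1, PSMC2, PSMC3, PSMC4, PSMC5 and PSMC6 carried no peak in either library. The nearest summit to any of them lay 1488 bp from PSMC6, in replicate 3, while the nearest in replicate 2 was at 11497 bp. PSMC3IP, taken in by its symbol, had a replicate 3 peak 162 bp downstream of a start (fold 2.92, −log10 q 1.64, 19 fragments), near the lowest −log10 q of that list, 1.31.

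In the regulatory particle, the 4 of 11 non-ATPase subunit genes called in both libraries had peaks close to their starts. At PSMD11, which encodes a lid subunit (chromosome 17, 32444510 to 32483319), fold was 4.11 in replicate 2 (32444348 to 32444508) and 4.69 in replicate 3 (32444346 to 32444510), the highest fold at any proteasome gene. The −log10 q was 3.77 and 5.20. Summits lay 85 bp and 130 bp upstream of the start, 45 bp apart, and rested on 22 fragments (exact Poisson 95% interval 13.8 to 33.3) and 24 (15.4 to 35.7). A weaker second peak of replicate 3 lay 165 bp downstream (fold 3.22). At PSMD2, a scaffold subunit that docks ubiquitin receptors (chromosome 3, 184299241 to 184309050), summits lay 3 bp upstream of the start in replicate 2 and 43 bp downstream of it in replicate 3. Fold was 3.54 in replicate 2, from 28 fragments, and 2.84 in replicate 3, from 25.

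PSMD3, another lid subunit gene (chromosome 17, 39980807 to 39997959), had fold 4.18 in replicate 2 and 3.50 in replicate 3, with summits 241 bp and 332 bp downstream of the start. PSMD14, which encodes the deubiquitinase of the lid (chromosome 2, 161308425 to 161411717), had its higher value in replicate 2. Fold there was 4.03 and −log10 q 5.74, on 34 fragments (23.5 to 47.5), with the summit 69 bp upstream of the start. In replicate 3 fold was 3.39 and −log10 q 3.61, on 27 fragments (17.8 to 39.3), with the summit 211 bp downstream. The PSMD14 peaks did not overlap, their summits being 280 bp apart. PSMD13 had a peak in replicate 3 alone (fold 3.73, 16 fragments), 955 bp upstream of its start and within 1 kb of an end of SIRT3, a mitochondrial deacetylase gene. PSMD1, PSMD4, PSMD6, PSMD7, PSMD8 and PSMD12 carried none.

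The strongest proteasome peak of each library by −log10 q was at a chaperone gene. PSMG2, whose product assembles the alpha ring together with that of PSMG1 (chromosome 18, 12658738 to 12725740), has 2 annotated starts, and both had peaks. Upstream of its second start, inside the gene, fold was 4.25 in replicate 2 (12702391 to 12702847) and 4.27 in replicate 3 (12702455 to 12703210), with summits 21 bp apart, at 313 bp and 334 bp upstream. The −log10 q of 9.13 and 9.56 ranked 247 of 8271 and 272 of 11502 peaks, and each rested on 48 fragments (35.4 to 63.6). These peaks were also within 1 kb of an end of CEP76, a centriole gene, so they cannot be assigned to either gene. A further peak of replicate 2 lay 27 bp upstream of the second start (fold 2.43). At the first start, broad peaks of 959 bp and 1343 bp had summits 754 bp and 753 bp upstream, inside SPIRE1, with fold 3.12 and 2.62. Their rebuilt local background of 14.0 and 13.0 exceeded the median of all peaks, 5.0 in each library.

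PSMD5, a chaperone of the ATPase ring (chromosome 9, 120816053 to 120842922), had fold 4.24 in replicate 2 (120842748 to 120842980) and 3.92 in replicate 3 (120842769 to 120842965). Its summits lay 64 bp and 101 bp downstream of the start, on 29 and 27 fragments, with −log10 q of 5.36 and 4.66. PSMG4, which acts with the product of PSMG3 in alpha ring assembly (chromosome 6, 3254404 to 3268049), had fold 3.59 in replicate 2 and 4.18 in replicate 3. Its summits lay 3 bp and 262 bp downstream of its annotated start, 259 bp apart, and the peaks did not overlap. PSMG3 itself had a peak in replicate 3 alone (fold 3.49, −log10 q 3.82), 63 bp outside its upper-coordinate end and within 1 kb of an end of the antisense gene PSMG3-AS1. PSMD9, PSMG1 and PSMD10, which encodes the oncoprotein gankyrin, carried none.

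Among activators, PSME1 (chromosome 14, 24136194 to 24138962) encodes a subunit of the interferon-inducible activator ring. It had fold 3.69 in replicate 2 and 3.37 in replicate 3, with summits 350 bp and 218 bp upstream and peaks that overlapped by 37 bp. PSME2, the gene of its partner subunit, lay just outside the rule, with the nearest summit at 1177 bp in replicate 2 and 1979 bp in replicate 3. PSME4, which encodes the nuclear activator linked to acetylated histones (chromosome 2, 53864069 to 53970993), had 2 peaks in each library. Those nearest the start had fold 2.67 in replicate 2 and 3.60 in replicate 3, with summits 86 bp and 80 bp downstream. The others had 3.60 and 3.36, at 275 bp and 440 bp, and all 4 were within 1 kb of an end of ACYP2, an acylphosphatase gene. PSMF1, the inhibitor gene (chromosome 20, 1113263 to 1172246), had low fold, 2.75 in replicate 2 and 2.55 in replicate 3, over a rebuilt background of 12.0 and 11.0. Its summits lay 28 bp upstream and 101 bp downstream of an annotated start that is internal to the gene. PSME3, which encodes a nuclear activator, and PSME3IP1 carried none.

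Of the 12 genes with a peak in both libraries, 9 had peaks of the libraries that overlapped by at least 1 bp (18.0% of the 50), against 23.1% of all protein-coding genes. The exceptions were PSMA1, PSMD14 and PSMG4. Summits lay within 100 bp of each other at 6 genes, PSMD2, PSMD3, PSMD11, PSMD5, PSMG2 and PSME4 (12.0%), against 13.7% of all genes. Among the 13 overlapping pairs of peaks, summits were 1 to 307 bp apart. The counting intervals of the libraries overlapped in all 13, but these pairs were called in both libraries past the same threshold and the intervals are wide, so the overlap says little on how well the libraries agree.

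**Figure D2:**
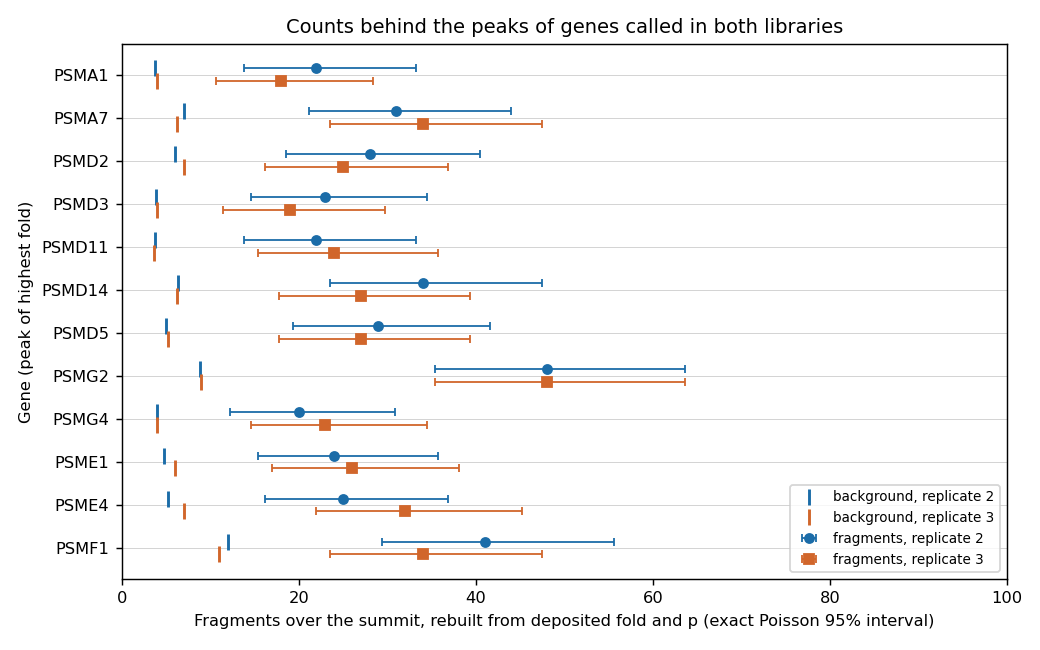
Fragments over the summit of the highest-fold peak of each of the 12 genes with a peak in both libraries, rebuilt from the deposited fold and p, with exact Poisson 95% intervals (horizontal bars). Ticks mark the rebuilt local background, which is in counts scaled by 0.848 (replicate 2) and 0.869 (replicate 3), while the fragments are unscaled. Circles and squares are replicates 2 and 3. PSMG2 had 48 fragments in each library, and the intervals of the libraries overlap at every gene shown. At PSMA1, PSMD14, PSMG4 and PSME4 the plotted peaks of the libraries do not overlap, so their counts are from different places.

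Proteasome peaks were of ordinary or lower height for these lists. In replicate 2 the 19 proteasome peaks had a median fold of 3.54, range 2.43 to 4.25, against a median of 3.76 over all peaks. In replicate 3 the 19 had a median of 3.39, range 2.55 to 4.69, against 3.78. The rebuilt background was slightly higher at proteasome peaks, with a median of 6.0 in each library against 5.0 over all peaks. The median fragment count was 25.0 in each, against 26.0 and 24.5. By fold the highest proteasome peaks ranked 2208 of 8271 in replicate 2 (PSMG2) and 1533 of 11502 in replicate 3 (PSMD11). With −log10 q of at least 5 in both libraries PSMG2 alone was left, where 6.37% of all genes were. No proteasome gene had fold of at least 5 in both, against 0.856% of all genes.

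Proteasome summits lay mostly at annotated starts, a location not counted over all peaks, so it cannot be called particular to these genes. Of the proteasome peaks at genes with an annotated start, 15 of 17 in replicate 2 and 16 of 16 in replicate 3 were within 1 kb of one, the exceptions being the replicate 2 peaks of PSMA1 beside PDE3B. Among the 44 proteasome genes with a promoter entry, 10 had a summit within 1 kb of a start in both libraries (22.7%), against 22.4% of 15813 protein-coding genes with one. No proteasome gene had one in both libraries within 1 kb of the end opposite its start, against 1.28% of genes. By distance to either end of the gene, which needs no strand, the count was 9 of 50 (18.0%), against 20.7%; PSMA1, PSMG4 and PSMF1 then dropped out. Of the 19 proteasome peaks in each library, 8 in replicate 2 and 6 in replicate 3 also lay near another protein-coding gene. Each was within 1 kb of an end of that gene, a count not made over all peaks. Proteasome genes are shorter, with a median length of 13552 bp against 24170 bp, and the part of gene length in the counts was not tested.

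**Figure D3:**
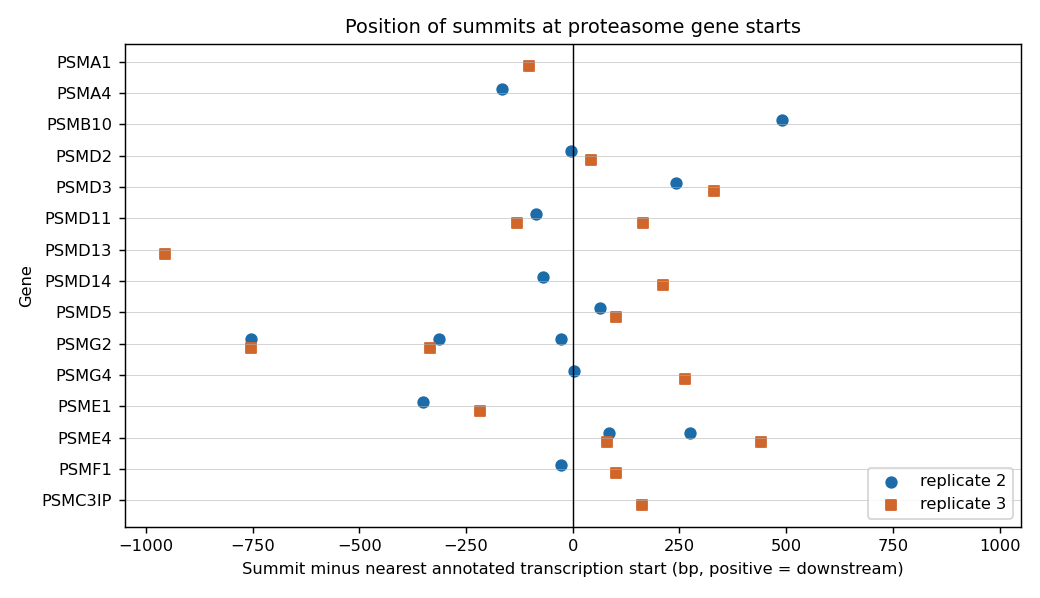
Distance in bp from each summit to the nearest annotated start of its gene (horizontal axis, positive values downstream), one row per gene, circles for replicate 2 and squares for replicate 3. Summits lie on both sides of the start, from 955 bp upstream (PSMD13) to 491 bp downstream (PSMB10). PSMA7 and PSMG3 had no annotated start, and the replicate 2 peaks of PSMA1 are out of range.

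At the edge of the 1 kb rule, the members just inside were PSMD13 (955 bp), the outer PSMA1 peak (922 bp) and the outer PSMA7 peak (856 bp). Just outside were PSME2 (1177 bp), PSMA5 (1274 bp, replicate 3) and PSMC6 (1488 bp, replicate 3). A window of 500 bp left the same 12 genes called in both libraries, where 24.6% of all genes were. One of 5 kb added PSMD8 and PSME2, where 28.5% of all genes were called.

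The 9 motifs were searched on both strands, and none contains another. Of the 55 promoters of the 44 proteasome genes, 24 held CCAAT, the NF-Y box (43.6%), against 34.6% of 22140 promoters of protein-coding genes, and 39 held GGGCGG, the GC box (70.9% against 56.3%). TGACNNNGC, the core of the antioxidant response element through which NFE2L1 acts on proteasome genes, was in 15 (27.3% against 13.8%). CCGGAAG, an ETS motif, was in 18 (32.7% against 12.8%), and AAGATGGC, which resembles YY1 sites, in 6 (10.9% against 3.54%). CACGTG, the E-box, was in 5 (9.09% against 8.34%). The cell cycle element letters TTTGAA were in 9 (16.4% against 12.4%) and TTCGAA in none (against 1.53%). TGTTTAC, the forkhead letters, was in 2 (3.64% against 2.85%), PSMD5 and PSMB2.

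In the sequences printed above, the forkhead letters of PSMD5 appear as their reverse complement, beginning 224 bases upstream of the start. They lay 160 bp outside the replicate 2 peak and 175 bp outside the replicate 3 peak, and its TGACNNNGC match also lay outside, by 68 bp and 83 bp. AAGATGGC, 10 bases downstream of the start of PSMD5, was inside both peaks, while the AAGATGGC of PSMD11, 11 bases downstream, lay 13 bp and 11 bp outside. PSMB2 holds the forkhead letters at 187 bases upstream and carried no peak. Matches to GGGCGG lay on either side of the peak edges. In PSMD11 the one at 55 bases upstream was inside the peaks of both libraries, and the one at 204 bases upstream was outside them by 37 bp and 35 bp. In PSMD2 the one at 23 bases upstream was inside both, and those at 156 and 169 bases upstream were outside by 32 bp to 54 bp. In PSMG2 the one at 230 bases upstream was inside the strongest peak of each library. The one at 105 bases upstream was inside that peak of replicate 3. In replicate 2 it lay between peaks, 55 bp outside the nearer one, the weaker peak of fold 2.43. Matches describe letters in these windows alone. Promoters of genes called in both libraries had a median GC content of 66.5% (14 promoters), against 60.5% in genes called in neither (34 promoters) and 62.3% over all genes, with medians of 28.5, 21.0 and 21.0 CG dinucleotides. The part of base composition in the calls was not tested.

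Genes that work with the proteasome, a list of 31 ubiquitin receptors, deubiquitinases, chaperones, ubiquitin genes and regulators, had peaks in both libraries at 16 members (51.6%), against 12 of 50 proteasome genes and 25.5% of all genes. The list was chosen with earlier results of these data known, and the difference was not tested. By annotated starts it was 14 of 27 (51.9%), and all 16 had overlapping peaks. The folds given are those of the highest-fold peak of each gene in each library. At ECPAS and MIDN these peaks of the libraries did not overlap each other. By the smaller of their 2 folds the first were ECPAS, a proteasome adaptor (fold 5.11 in replicate 2 and 5.81 in replicate 3), and UBE3A, a ubiquitin ligase that binds the proteasome (4.81 and 5.26). MIDN, which carries proteins to the proteasome without ubiquitin (5.69 and 4.09), VCP, the segregase that unfolds ubiquitinated proteins (5.06 and 4.09), UBE3C, a proteasome-bound ligase (3.94 and 5.31), and ADRM1, a ubiquitin receptor of the regulatory particle (4.83 and 3.93), followed. The others included RAD23B, AKIRIN2, NGLY1, NFE2L2, USP14, UBQLN1, PITHD1, UBQLN4 and ZFAND5.

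Of the transcriptional regulators in that list, NFE2L2 had a peak in both libraries (3.34 and 3.96, from peaks that did not overlap). NFE2L1, the factor that restores proteasome genes when the proteasome is inhibited, and its activating protease DDI2 had none. NGLY1, the deglycosylase needed for NFE2L1 activity, had 3.53 and 5.98, its replicate 3 value being the highest single fold of the list. The core chaperone gene POMP had a peak in replicate 2 alone (fold 3.62). SEM1, UCHL5, PAAF1, FBXO7, TXNL1, UBA1, UBA6, UBB, RPS27A and UBQLN2 had none.

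Calls also differed by chromosome, and some genes of both lists lie on chromosomes rich in calls. On chromosome 20 both proteasome genes, PSMA7 and PSMF1, were called in both libraries, where 44.7% of all genes were. On chromosome 9, 1 of 2 proteasome genes and 5 of 5 partner genes (ECPAS, VCP, RAD23B, UBQLN1 and ZFAND5) were, against 36.9% of all genes there. Chromosome 14 holds 8 proteasome genes, of which PSME1 alone was called, against 21.8% of all genes. Chromosome 17 also holds 8, of which PSMD3 and PSMD11 were called, against 28.1%. None of the 4 on chromosome 1 was called, against 23.8%. Copy number was not measured in these files, and the part of the chromosome in these counts was not tested.

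Ribosomal protein genes, also for large complexes made in all cells, were compared by the same rule. Of 85 cytosolic ribosomal protein genes 14 carried a peak in both libraries (16.5%), and of 77 mitochondrial ribosomal protein genes 12 did (15.6%), beside 24.0% of the proteasome genes. In each library alone the cytosolic set did not stand lower: proteasome genes had 28.0% in replicate 2 and 30% in replicate 3, against 28.2% and 31.8% of that set and 19.5% and 28.6% of the mitochondrial set. By either gene end the shares were nearer, 18.0% of proteasome genes, 16.5% and 15.6%. Median gene lengths were 13552 bp, 5035 bp and 8618 bp. The differences and the part of gene length in them were not tested.

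**Figure D4:**
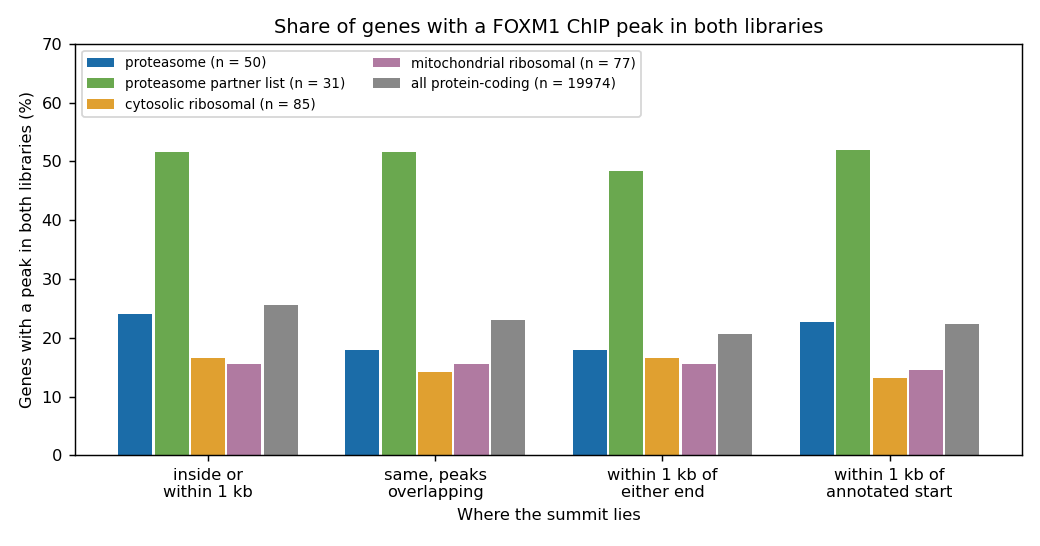
Share of genes (percent, vertical axis) with a peak in both libraries under 4 rules on where the summit lies (horizontal axis), for proteasome genes, the list of partner genes, 2 sets of ribosomal protein genes and all protein-coding genes. The proteasome bars, from 18.0% to 24.0%, lie near those of all genes. The partner genes, listed with earlier results of these data known, stand at 48.4% to 51.9%. Numbers in the legend are for the first 3 rules; the last covers genes with a promoter entry.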

How the data were processed

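Peaks of the 2 ChIP libraries stood in 1 deposited list per library, not pooled. The submitters' processing notes name MACS2 2.2.7.1, BWA, CASAVA 1.4 and build GRCh38, with no role or order; which library was the control, filters and duplicate handling are not given in the sources used here. The deposited lists gave a fold enrichment at the summit (a linear ratio), −log10 p and −log10 q values, a score (10 times −log10 q without its decimals, not used) and the summit offset. Lists ended near a q of 0.05 (lowest −log10 q 1.32 and 1.31).

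Summits were matched to RefSeq GRCh38.p14 genes, in 1-based coordinates. Starts and strand came from the RefSeq promoter table. Whole fragment counts were rebuilt from the deposited fold, with a pseudocount of 1, and −log10 p, under a Poisson background. Of the peaks, 100.0% matched within 0.001. Fragment counts are unscaled, while the background is in counts multiplied by a fitted scale, 0.848 in replicate 2 and 0.869 in replicate 3. Their plain ratio is thus not the fold. Intervals cover counting error only. The matching of summits to genes and the rebuilding of counts were tested on simulated data. No test between groups was possible, since both libraries are of 1 condition, so counts stand beside the share of all genes.

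The gene set, roles, lists and motifs were chosen with earlier results of these data known. Every member is named, and of the partner list the 6 of highest lower fold with values; values of NFE2L2, NGLY1 and POMP were added after they were seen. Some members of the partner list are counted but not reported here by name. Python 3.11.15, numpy 2.4.6, pandas 2.3.3, SciPy 1.17.1 and matplotlib 3.10.9 were used.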

Additional observations from a re-analysis of the deposited data

How the results depend on the processing

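Percentages in brackets are the share of all protein-coding genes called under the same setting. The count of 12 proteasome genes with a peak in both libraries was 14 with a 5 kb window (28.5%) and 12 with one of 500 bp (24.6%). It stayed 12 without PSMC3IP, or without PSMC3IP and PSME3IP1, the last setting added after seeing the data. It was 9 with overlapping peaks (23.1%), 6 with summits within 100 bp (13.7%), 1 where −log10 q had to reach 5 (6.37%) and 0 where fold did (0.856%). It was 15 without replicate 2 (38.1%) and 14 without replicate 3 (30.3%). The count of 9 at either gene end was 8 with a 500 bp window (16.5%), 13 with one of 5 kb (26.2%) and 8 with overlapping peaks (18.9%). It was 12 without replicate 2 (32.1%) and 12 without replicate 3 (25.1%). Where −log10 q (4.68%) or fold (0.601%) had to reach 5 it was 0. Among genes with a promoter entry it was 10 by annotated starts (22.4%) and 0 by the opposite ends (1.28%), both added after seeing the data. The 16 partner genes were 18 without replicate 2 (38.1%), 17 without replicate 3 (30.3%) and 6 with −log10 q of at least 5 (6.37%). Among peaks of −log10 q from 5 upward, median proteasome fold was 4.13 in replicate 2 and 4.27 in replicate 3; the highest peak of each gene gave 3.65 and 3.5. Stricter thresholds keep fewer peaks by construction. No paired analysis was possible because both libraries are of the same condition. Summits of about 25.0 fragments limit the detection of weak peaks.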

Other observations

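The proteasome family has many pseudogenes, copies without a known product. None of the 51 on chromosomes 1 to 22 and X carried a peak in either library, where 2.12% of all pseudogenes did. Of 8 lncRNA genes named after proteasome genes, PSMD14-DT carried a peak in both libraries, where 7.49% of all lncRNA genes did. PSMG3-AS1 was called in replicate 3 alone, where the peak given above for PSMG3 lay within 1 kb of its end. In either library 13.1% of all lncRNA genes carried a peak. The 33 proteasome genes with no peak lay a median of 63595 bp from the nearest summit in replicate 2 and 38534 bp in replicate 3. PSMD10, on chromosome X, lay farthest, at 35807148 bp and 24398146 bp, on a chromosome where 4.25% of protein-coding genes carried a peak in both libraries.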
